A study of Mus musculus with 2 samples.

Results

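Urothelial differentiation is driven in part by a small set of transcription factors, and 10 of their genes were followed here by name: the nuclear receptors Pparg and Rxra, the grainyhead-like factors Grhl2 and Grhl3, the ETS factors Elf3 and Ehf, the pioneer-type factors Foxa1 and Gata3, and the zinc finger factors Klf5 and Ovol1. They are 10 of the 32589 genes in the count tables, named as a group with earlier results of these data known. The tissue was ureter of newborn mice at postnatal day 0, measured by single-nucleus RNA sequencing. The DNp63cKO pool held 14 mice that carried 1 copy of a Pax2-cre driver, 2 floxed alleles that remove ΔNp63, an isoform encoded by Trp63, and 1 copy of the R26mTmG reporter. The control pool held 13 mice, labelled wild type, and no driver or reporter is given for it. Pax2-cre acts in the nephric duct lineage, from which the ureter epithelium grows, and pooling leaves no spread between animals. Each pool gave 1 library, so all values compare 2 libraries, no test can be made, and intervals are exact 95% intervals that cover counting error only.

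PPARG works as a pair with RXRA and switches on genes of superficial cells, the uroplakin-rich cells that face the urine. GRHL3 is needed for the terminal differentiation of those cells in mice, and GRHL2 keeps epithelial junction genes on. FOXA1 and GATA3 open chromatin at urothelial genes together with PPARG, and KLF5 and ELF3 act in the same network. OVOL1 and EHF are known from other stratified epithelia, where they promote differentiation. ΔNp63 marks the basal cells beneath.

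The deposited tables held 5528 nuclei in the DNp63cKO library and 9062 in the control library, with medians of 1298 and 1124.5 UMIs (unique molecular identifiers, 1 per captured RNA molecule), and 58 barcodes occurred in both. After filtering, 2234 of 5172 DNp63cKO nuclei (43.2%) and 4903 of 8373 control nuclei (58.6%) fell in 6 urothelium-like clusters, which were made without the member genes. Levels are CPM, the UMIs of a gene scaled to a fixed total of UMIs in its class, and levels of different genes are not compared. In urothelium-like nuclei Trp63, the targeted gene, was at 137 CPM in DNp63cKO against 191 CPM in control, and in all other named nuclei at 32.8 CPM in DNp63cKO against 70.9 CPM in control. The unnamed cluster 15 (42 DNp63cKO and 230 control nuclei), with Trp63 among its 10 leading genes, enters neither set of values. No source here names the deleted exons, so UMIs from the rest of the gene may remain. Summed smooth muscle markers in urothelium-like nuclei reached 1697 CPM in DNp63cKO against 1192 CPM in control, and summed fibroblast markers 1572 CPM against 1037 CPM. All 12 and all 11 of these markers had UMIs in both libraries.

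On GRCm38 (GENCODE M21) the receptor genes lie at chr6:115360951-115490399 on the plus strand (Pparg) and chr2:27676440-27762957 plus (Rxra), and the grainyhead genes at chr15:37233036-37363569 plus (Grhl2) and chr4:135541888-135573630 minus (Grhl3). Elf3 lies at chr1:135253575-135258568 minus, Ehf at chr2:103263433-103303278 minus, Foxa1 at chr12:57540628-57546916 minus and Gata3 at chr2:9857078-9890034 minus. Klf5 lies at chr14:99298691-99315036 plus and Ovol1 at chr19:5549136-5560646 minus. Counts are per whole gene.

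Promoter sequences of 6 members (Pparg, Grhl3, Elf3, Foxa1, Gata3 and Rxra) were found in RefSeq (GRCm38.p6), with 9 start sites in all. The 250 bases before the start are shown for Grhl3, Gata3, the last of 3 Pparg starts and both Rxra starts, because these genes carry the differences described below and these windows hold no annotated exon of their gene. Each is written 5′ to 3′ along the gene, and capitals mark the motifs searched on both strands. The windows are chr4:135573633-135573882 (minus strand) for Grhl3, chr2:9878601-9878850 (minus strand) for Gata3, chr6:115421816-115422065 (plus strand) for Pparg, and chr2:27676951-27677200 and chr2:27709042-27709291 (plus strand) for the first and second Rxra start.
Grhl3: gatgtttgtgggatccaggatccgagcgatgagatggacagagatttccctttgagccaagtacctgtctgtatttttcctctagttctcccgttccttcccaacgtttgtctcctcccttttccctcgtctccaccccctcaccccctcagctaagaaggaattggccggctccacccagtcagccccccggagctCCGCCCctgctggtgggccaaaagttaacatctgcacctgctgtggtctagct
Gata3: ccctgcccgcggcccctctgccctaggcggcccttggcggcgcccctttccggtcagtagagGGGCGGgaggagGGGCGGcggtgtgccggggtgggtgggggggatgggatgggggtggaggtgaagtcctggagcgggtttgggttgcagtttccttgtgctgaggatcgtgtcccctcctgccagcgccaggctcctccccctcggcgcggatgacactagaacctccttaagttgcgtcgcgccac
Pparg, last start: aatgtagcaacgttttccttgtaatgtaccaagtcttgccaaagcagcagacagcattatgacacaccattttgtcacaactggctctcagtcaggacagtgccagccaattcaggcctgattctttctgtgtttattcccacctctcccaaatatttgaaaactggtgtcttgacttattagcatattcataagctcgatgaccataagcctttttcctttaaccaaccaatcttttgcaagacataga
Rxra, first start: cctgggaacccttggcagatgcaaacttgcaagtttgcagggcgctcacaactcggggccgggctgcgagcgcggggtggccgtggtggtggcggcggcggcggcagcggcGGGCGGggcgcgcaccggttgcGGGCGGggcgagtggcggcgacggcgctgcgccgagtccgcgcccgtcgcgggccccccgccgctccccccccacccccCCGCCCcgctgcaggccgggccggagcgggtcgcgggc
Rxra, second start: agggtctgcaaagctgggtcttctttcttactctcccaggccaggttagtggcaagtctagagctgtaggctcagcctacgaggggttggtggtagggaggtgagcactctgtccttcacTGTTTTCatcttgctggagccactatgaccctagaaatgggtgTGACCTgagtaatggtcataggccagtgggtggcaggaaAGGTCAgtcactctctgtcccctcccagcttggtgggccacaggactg
The capitals in Grhl3, Gata3 and the first Rxra window are GGGCGG or its reverse complement, a motif of Krüppel-like factors, which occurred before 6 of the 9 member starts and in 32.7% of 32851 mouse promoter windows of the same length. The second Rxra window held TGTTTNC, a forkhead motif found in 17.8% of all windows, and AGGTCA, the core site of nuclear receptors, which began 87 and 48 bases before the start. AGGTCA was in 14.0% of all windows. The Pparg window held none of the motifs. The grainyhead motif AACNNGTT (3.64% of all windows), the ETS motif AGGAAG (29.5%) and the GATA motif AGATAA (9.99%) were in none of the 9. No motif shared bases with another, and a match is a run of letters and not a shown binding site.

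All 10 members were higher in urothelium-like nuclei than in smooth muscle-like, fibroblast-like and endothelium-like nuclei, in both libraries. Gata3 stood at 601 CPM in DNp63cKO urothelium and 599 CPM in control urothelium. In fibroblast-like nuclei Gata3 was at 174 CPM in DNp63cKO against 181 CPM in control. Over the 10 genes the fibroblast-like level as a share of the urothelial one ran between 23.5% (Ehf) and 33.1% (Rxra) in DNp63cKO fibroblast-like nuclei, and between 17.5% (Elf3) and 35.2% (Klf5) in control. The summed uroplakins, proteins of the urothelial surface plaque, were at 23.1% of their urothelial value there in DNp63cKO and 20.2% in control. Member levels at or below the uroplakin share are read as background, and the part of free RNA in the levels above it was not tested.

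Pparg, the lipid-sensing receptor, had the highest share of its urothelial level among the members in endothelium-like nuclei, closely followed by others in control. It was at 350 CPM (95% interval 292 to 416) in DNp63cKO against 412 CPM (354 to 476) in control, which is 58.5% and 51.6% of its urothelial level. The uroplakins in the same nuclei were at 29.8% in DNp63cKO and 21.2% of their urothelial level in control. Ehf was next in DNp63cKO and Rxra close to it, at 41.7% and 38.4%, and in control they were at 47.3% and 47.2% of their urothelial level. The remaining classes (pericyte, macrophage, neuron, glia and nephron) held between 6 and 79 nuclei per library, and their member counts gave wide intervals. Pparg in control was as high in neuron-like (499 CPM, 291 to 800) and macrophage-like nuclei (466 CPM, 292 to 706) as in endothelium-like ones. Gata3 in neuron-like nuclei had 21 UMIs in DNp63cKO (354 CPM, 219 to 541) and 19 UMIs in control (558 CPM, 336 to 872), where the interval reached the level of control urothelium.

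**Figure D1:**
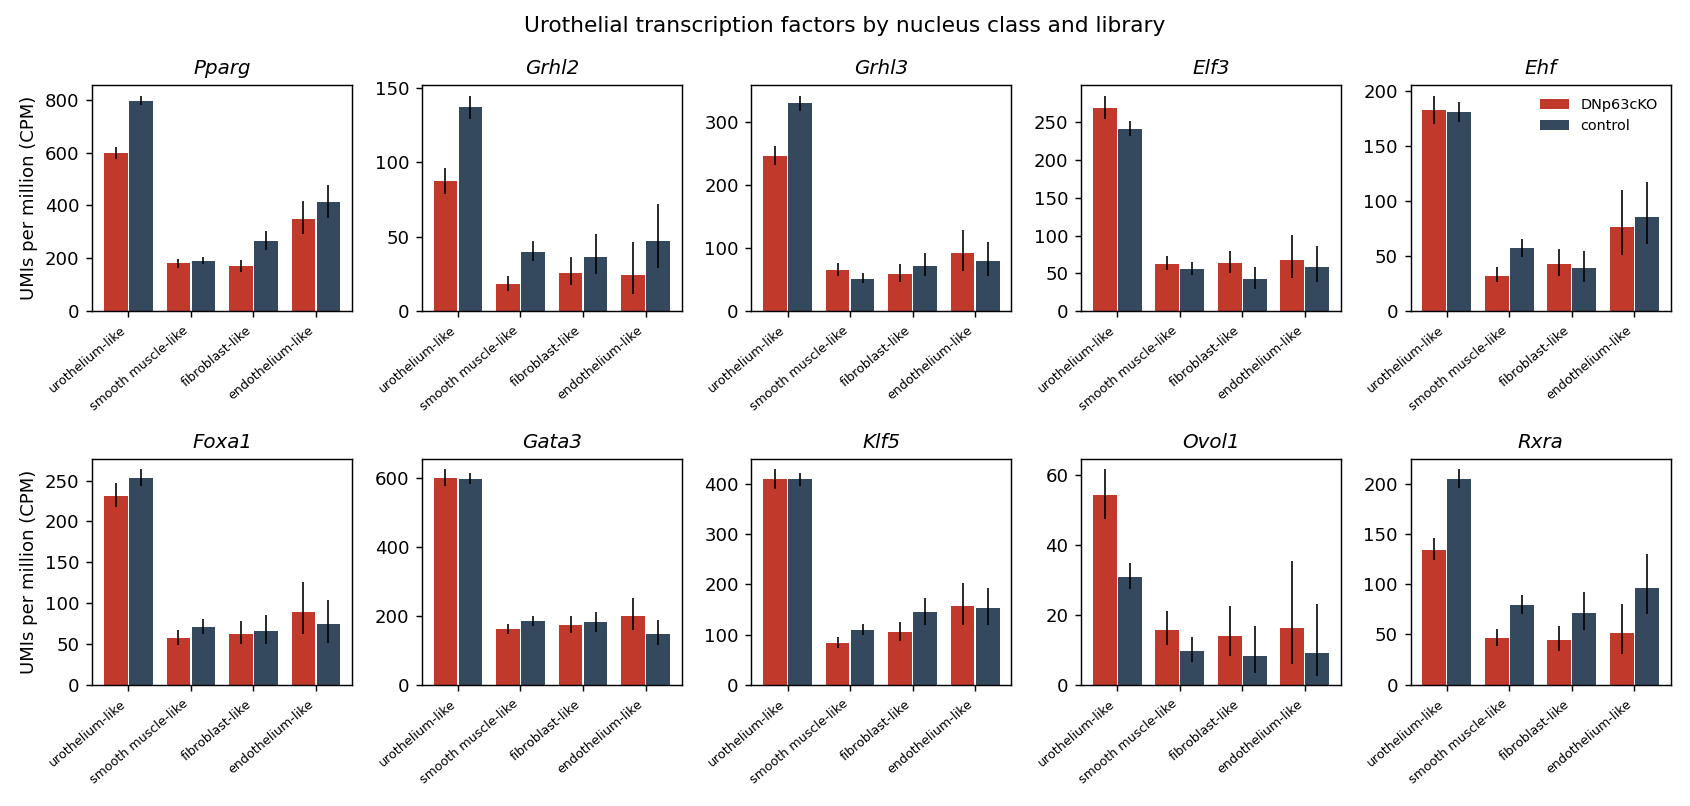
Level of each member (CPM, axis from 0) in the 4 largest nucleus classes, with DNp63cKO left of control and 95% Poisson bars. Every gene is highest in urothelium-like nuclei of both libraries, and Pparg keeps 350 CPM in DNp63cKO and 412 CPM in control in endothelium-like nuclei.

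Between the libraries, 5 of the 10 factors stayed close in the pooled urothelium-like nuclei. Gata3, Klf5 (410 CPM in each library) and Ehf (182 CPM in DNp63cKO, 181 CPM in control) had log2 ratios of DNp63cKO over control of 0.01, 0.00 and 0.01, computed on CPM + 5. Foxa1 was at 232 CPM in DNp63cKO against 253 CPM in control (log2 ratio -0.12, interval -0.24 to -0.02). Elf3 was at 269 CPM in DNp63cKO against 241 CPM in control (0.15, 0.05 to 0.26). The remaining 5 members lay further from 0, 4 of them lower in DNp63cKO.

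Among the receptors, Pparg had 2557 UMIs in DNp63cKO (599 CPM) and 7218 in control (797 CPM), a log2 ratio of -0.41 (-0.48 to -0.35). Rxra had 574 UMIs in DNp63cKO (134 CPM) and 1853 in control (205 CPM), a log2 ratio of -0.59 (-0.74 to -0.47). Both partners of the heterodimer were thus lower in the DNp63cKO library. Of the grainyhead factors, Grhl2 was at 87.1 CPM in DNp63cKO against 137 CPM in control (-0.62, -0.82 to -0.48), and Grhl3 at 246 CPM in DNp63cKO against 329 CPM in control (-0.41, -0.52 to -0.32). Ovol1 went the other way, with 231 UMIs in DNp63cKO (54.1 CPM) and 280 in control (30.9 CPM), a log2 ratio of 0.72 (0.55 to 1.06).

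At a log2 ratio of 0.5 or more either way, 2 of the 10 members were lower in DNp63cKO (Grhl2 and Rxra), where 4.06% of the 14897 genes with 20 or more UMIs were, and 1 was higher (Ovol1), where 5.69% of those genes were. All 10 members passed that filter. Their median log2 ratio was -0.06, beside 0.01 over all 14897 genes. In these pooled nuclei the list as a whole lay near the middle of all genes, with single members to either side. Without cluster 4, a cluster described below that is mostly DNp63cKO nuclei, Grhl2 was at -0.31, Rxra at -0.495 and Ovol1 at 0.25, so none of these 3 was past the fold, while Grhl3 was at -0.97 and Elf3 at -0.21. Without cluster 8, mostly control nuclei, Grhl3 was at 0.37.

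The 3 members past that fold differed in the same direction in nuclei outside the urothelium. Grhl2 there was at 21.4 CPM in DNp63cKO against 41.3 CPM in control (log2 ratio -0.81), Rxra at 46.1 CPM and 78.9 CPM (-0.72), and Ovol1 at 15.9 CPM and 9.09 CPM (0.57). Past the same fold, 2.99% of the 14992 genes outside the urothelium were lower and 4.48% higher. The median of the 10 members there was -0.23, beside 0.02 over those 14992 genes. Pparg was also lower there, at 197 CPM in DNp63cKO against 234 CPM in control (-0.24, -0.38 to -0.12). Grhl3 was not, at 66.6 CPM in DNp63cKO against 59.1 CPM in control (0.16, -0.06 to 0.41). Uroplakins outside the urothelium, a measure of free RNA, were at 23.2% of the urothelial level in DNp63cKO and 18.5% in control. With a share of free RNA estimated from them subtracted, Grhl2 was at -0.43 and Rxra at -0.42 in the urothelium, still lower in DNp63cKO but not past the fold.

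Shares of nuclei with a UMI, after thinning each nucleus to 700 UMIs, gave the same order of the libraries for Pparg, Rxra, Grhl2 and Ovol1. For Grhl3 they were 14.3% (12.9 to 15.9%) in DNp63cKO and 15.7% (14.6 to 16.9%) in control urothelium-like nuclei, with intervals that overlap. Without thinning Grhl3 was in 29.2% of DNp63cKO and 29.1% of control nuclei. Pparg had a UMI in 30.2% (28.2 to 32.2%) of 2072 DNp63cKO urothelium-like nuclei and 38.6% (37.1 to 40.1%) of 4064 control nuclei. In fibroblast-like nuclei the share was 9.05% in DNp63cKO and 14.5% in control. Rxra was found in 8.06% of DNp63cKO and 12.5% of control nuclei, Grhl2 in 6.61% and 9.42%, and Ovol1 in 3.52% and 1.94%. Their fibroblast-like shares were 3.39% and 4.28% for Rxra, 1.56% and 1.86% for Grhl2, and 0.707% and 0.186% for Ovol1. Elf3, counted above as close in CPM, was in 16.1% (14.6 to 17.8%) of DNp63cKO and 12.6% (11.6 to 13.7%) of control nuclei. Its fibroblast-like shares were 4.53% in DNp63cKO and 3.72% in control. Without thinning, Pparg was in 50.04% of DNp63cKO nuclei (median 1477 UMIs) and 57.4% of control nuclei (median 1247 UMIs), and thinning left out 162 and 839 shallower nuclei. A thinned nucleus held on average 1.58 of the 10 factors in DNp63cKO and 1.73 in control.

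The urothelium-like clusters fell in 2 groups by their summed superficial markers. Clusters 4, 8 and 9 lay above the level of the whole class and are called high superficial here (1289 DNp63cKO and 1692 control nuclei). Clusters 5, 6 and 7 lay below it and are called low superficial (945 and 3211 nuclei). Median UMIs were 1623 in DNp63cKO and 2254 in control in the high superficial group, and 1232 and 969 in the low one. Cluster 7 is basal-like, with Krt5 and Krt14 among its leading genes against the other urothelium-like clusters. Of 14 basal markers it had 11 at 50 CPM or more, but so had cluster 6, and cluster 5 had 10. Against the other urothelium-like clusters, cluster 6 is led by cycling genes such as Mki67 and Top2a. Most high superficial nuclei came from different clusters in each library. In DNp63cKO, 1097 of 1289 were in cluster 4, and in control 1025 of 1692 were in cluster 8 and 581 in cluster 9. Cluster 4 held only 86 control nuclei, and a cluster mostly of 1 library may be that library and not a cell state.

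Grhl3 was the most superficial member in both libraries, and its step between the groups of clusters had the lower value in DNp63cKO, with intervals that just overlap. It was at 322 CPM in high and 109 CPM in low superficial clusters of DNp63cKO, a log2 difference of 1.52 (1.32 to 1.81). In control it was at 506 CPM in high and 133 CPM in low superficial clusters, a difference of 1.89 (1.79 to 2.06). Between the libraries Grhl3 was lower by a log2 ratio of -0.64 (-0.76 to -0.54) in high and -0.27 (-0.54 to -0.03) in low superficial clusters. The value in high superficial clusters rests on cluster 8, where Grhl3 was at 434 CPM in DNp63cKO against 593 CPM in control. Without that cluster it was -0.03, and without cluster 4 it was -0.33. In cluster 9 the levels were 371 CPM in DNp63cKO against 318 CPM in control, with an interval of the ratio that spans 0.

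Grhl2, the paralog with the broader epithelial role, ran the other way along the layers. In DNp63cKO it was at 70.2 CPM in high and 118 CPM in low superficial clusters (-0.71, -1.05 to -0.44), and in control at 107 CPM in high and 171 CPM in low superficial clusters (-0.65, -0.84 to -0.51). Its slope thus overlapped between the libraries while its level was lower in DNp63cKO in both groups of clusters (-0.57 and -0.52, the second -0.47 without cluster 6). A transcript on the other strand, Gm16136, overlaps Grhl2, and whether counting used strand is not given in the sources used here. Gm16136 differed less in the class, at 168 CPM in DNp63cKO against 180 CPM in control (-0.10). Along the layers it ran opposite to Grhl2, at 200 CPM in high and 111 CPM in low superficial clusters of DNp63cKO. In control these levels were 220 CPM and 135 CPM. Its log2 ratio was -0.14 in high and -0.27 (-0.54 to -0.03) in low superficial clusters, and 0.28 outside the urothelium. The part of Gm16136 in the Grhl2 values was not tested.

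Elf3, which like Grhl3 marks differentiating cells, was higher in high superficial clusters in both libraries. Its levels were 304 CPM in high and 207 CPM in low superficial clusters of DNp63cKO (0.54), and 301 CPM and 175 CPM in control (0.77). Between the libraries its ratio in high superficial clusters was 0.01, and -0.47 without cluster 4. Foxa1 showed the same order with smaller steps of 0.39 in DNp63cKO and 0.26 in control. Ehf was flat, with steps of -0.10 and 0.02 whose intervals span 0. Ovol1 was at 64.4 CPM in high and 35.5 CPM in low superficial clusters of DNp63cKO, and at 34.6 CPM and 26.9 CPM in control. Its difference between the libraries was 0.81 (0.58 to 1.21) in high superficial clusters, 0.40 without cluster 4 and 1.35 without cluster 8. In the low ones it was 0.35 (-0.09 to 0.88), which counting error alone could span, and -0.17 without cluster 6.

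Gata3 and Klf5 were level along the layers in the DNp63cKO library and sloped in control. In DNp63cKO Gata3 was at 606 CPM in high and 594 CPM in low superficial clusters, a log2 difference of 0.03 (-0.09 to 0.15). In control it was at 503 CPM in high and 706 CPM in low superficial clusters (-0.48, -0.57 to -0.41). Klf5 followed the same pattern, with 403 CPM and 422 CPM in DNp63cKO (-0.06, -0.20 to 0.08) and 346 CPM and 481 CPM in control (-0.47, -0.57 to -0.38). The pooled ratios near 0 of both genes therefore join a higher level in the high superficial clusters of DNp63cKO, 0.27 for Gata3 (0.18 to 0.36) and 0.22 for Klf5 (0.11 to 0.33), with a lower level in the low ones, -0.25 (-0.36 to -0.14) and -0.19 (-0.32 to -0.06), which were -0.16 and -0.10 without cluster 7. For Klf5 the higher level rests on which clusters make up the group, since within cluster 8 it was at 266 CPM in DNp63cKO against 294 CPM in control, and within cluster 9 at 396 CPM and 474 CPM, both with intervals that span 0. In cluster 4 it was at 415 CPM in DNp63cKO against 258 CPM in control (0.67, 0.19 to 1.22). Gata3 overlaps the same-strand transcript 9230102O04Rik, which was at 82.7 CPM in DNp63cKO against 46.7 CPM in control, so reads could be split between them and the values of Gata3 are uncertain in that respect. The log2 ratio of that transcript was 0.84 (0.65 to 1.14) in high and 0.24 (-0.16 to 0.70) in low superficial clusters. Its part in the Gata3 values was not tested.

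Pparg was lower in DNp63cKO in each low superficial cluster, and differed in direction among the high ones. In low superficial clusters it was at 508 CPM in DNp63cKO against 803 CPM in control (-0.66, -0.78 to -0.55), with 540 CPM against 815 CPM in cluster 5, 439 CPM against 739 CPM in cluster 6 and 572 CPM against 827 CPM in cluster 7, DNp63cKO against control. In high superficial clusters the levels were 649 CPM in DNp63cKO and 792 CPM in control (-0.29, -0.37 to -0.20). Without cluster 4 this ratio was 0.08 and without cluster 8 it was 0.15. Cluster 8 had more Pparg in DNp63cKO, 1160 CPM (227 UMIs) against 907 CPM in control. Cluster 9 had less, 453 CPM in DNp63cKO and 538 CPM in control, with an interval of the ratio that reached 0. Rxra was lower in DNp63cKO in all 6 clusters, between 182 CPM against 233 CPM in cluster 7 and 138 CPM against 266 CPM in cluster 9, with intervals that reach 0 in clusters 4 and 5. Its ratio in high superficial clusters was -0.65, and -0.99 without cluster 8.

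Past the same fold, the high superficial clusters held 3 lower members (Grhl2, Grhl3 and Rxra) and 1 higher (Ovol1), beside 6.38% and 10.7% of 13387 genes. The low superficial clusters held 2 lower (Pparg and Grhl2) and 0 higher, beside 7.88% and 7.81% of 13186 genes. The median of the 10 members was -0.07 in high superficial clusters, beside 0.05 over all genes. In the low ones it was -0.25, beside -0.01. With 1 library per group there is no test behind these counts and medians, and the differences between the 2 groups of clusters were not tested.

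**Figure D2:**
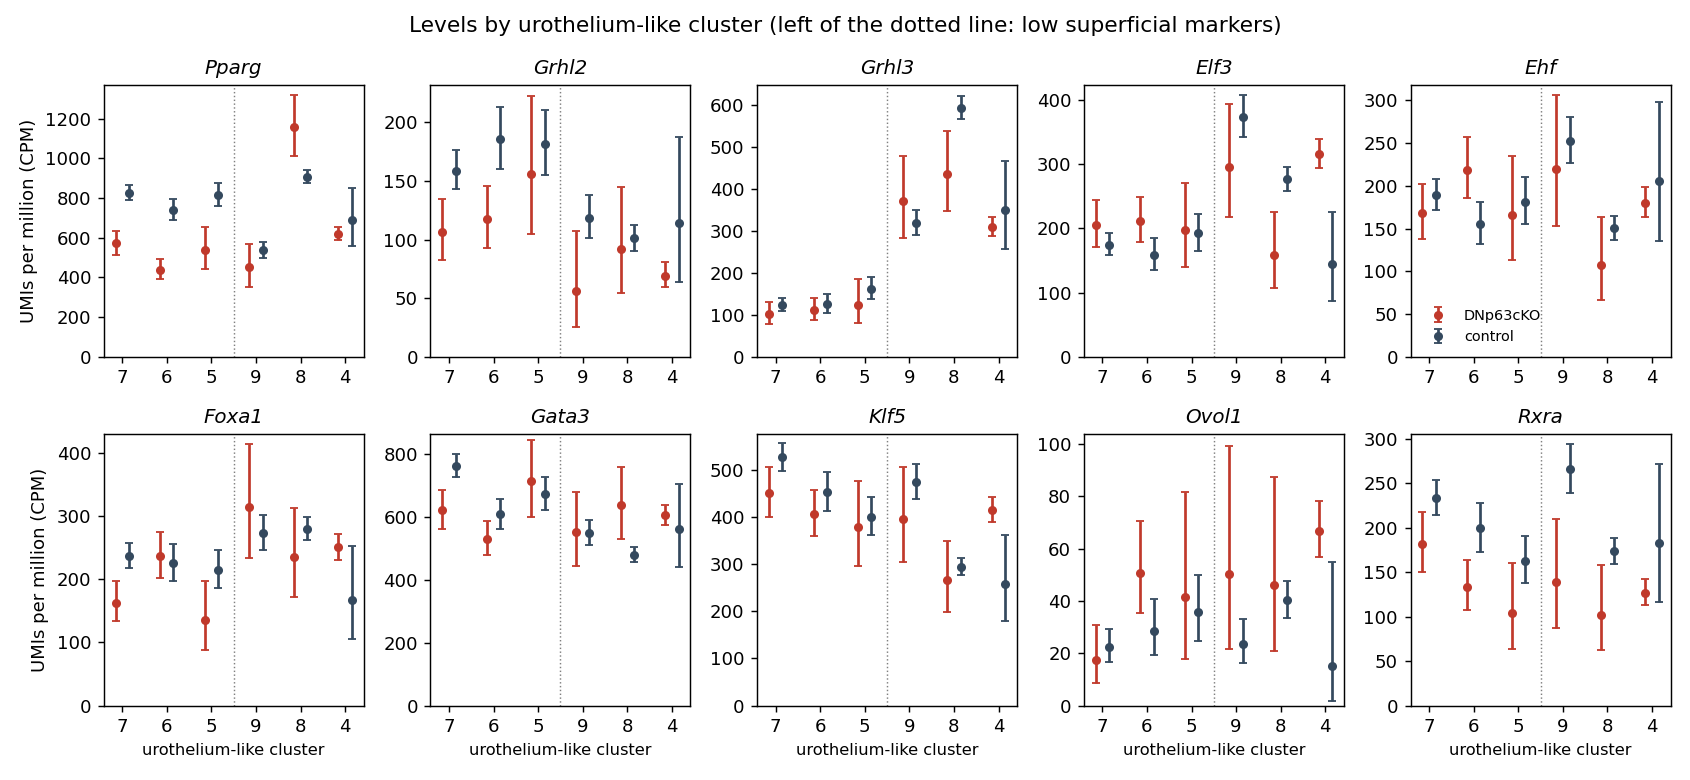
Level of each member (CPM, axis from 0) in the 6 urothelium-like clusters, DNp63cKO left of control in each pair, with 95% Poisson bars; clusters 7, 6 and 5 are low and 9, 8 and 4 high in superficial markers. Pparg is lower in DNp63cKO in clusters 5, 6 and 7 but higher in cluster 8, and Rxra is lower in all 6.

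**Figure D3:**
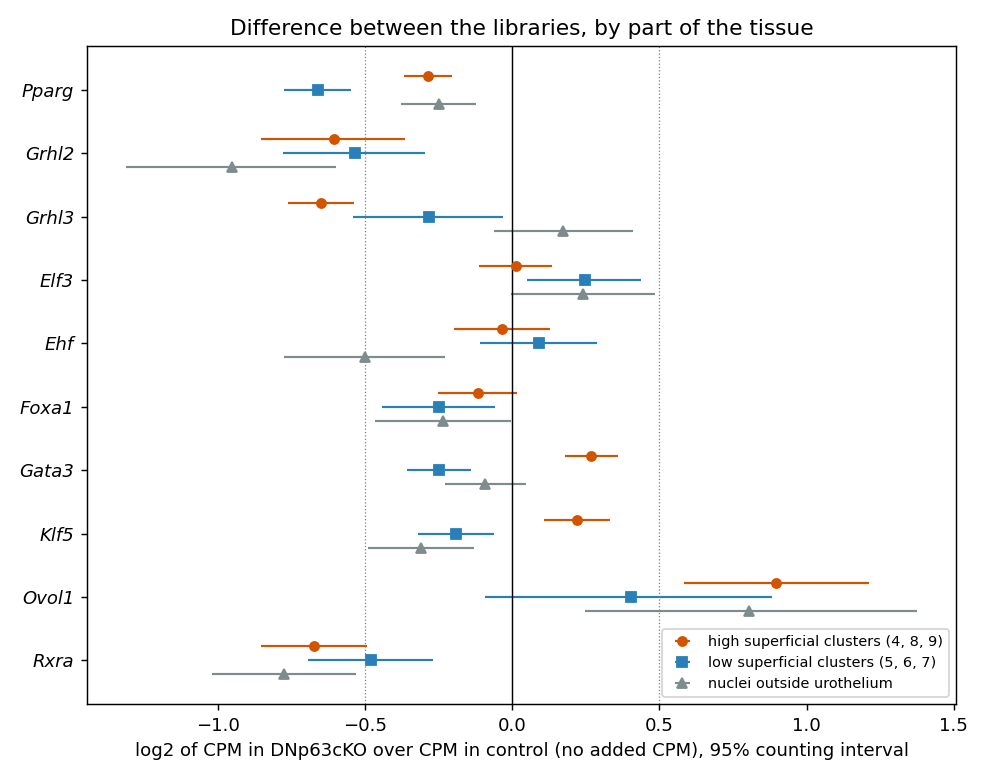
Log2 ratio of CPM in DNp63cKO over control (without the added 5 CPM) for each member in high superficial clusters, low superficial clusters and nuclei outside the urothelium, with 95% counting intervals; dotted lines mark 0.5 either way. Gata3 and Klf5 lie on opposite sides of 0 in the 2 groups of clusters, and Grhl2 and Rxra lie below 0 in all 3 sets.

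A ranking of the same nuclei without the cluster borders kept some of the slopes and not others. It used superficial markers that also set the groups of clusters, so it is not an independent check. Urothelium-like nuclei were ranked within each library by their share of uroplakin UMIs and divided in 3 equal tertiles, with 0.271% and 1.91% of UMIs from uroplakins in the lowest and highest tertile of DNp63cKO and 0.201% and 1.73% in control. Gata3 ran 568, 640 and 597 CPM from the lowest to the highest tertile in DNp63cKO, against 762, 670 and 489 CPM in control. Klf5 ran 415, 378 and 428 CPM in DNp63cKO, against 493, 476 and 339 CPM in control. Both genes ran downward in control and not in DNp63cKO, with log2 differences of the highest over the lowest tertile of 0.07 (-0.07 to 0.21) in DNp63cKO and -0.64 (-0.73 to -0.55) in control for Gata3, and 0.04 and -0.53 for Klf5. Ranked by superficial markers other than uroplakins, these differences were -0.02 in DNp63cKO and -0.43 in control for Gata3, and 0.37 (0.20 to 0.56) and -0.14 for Klf5, so Klf5 was then not level in DNp63cKO.

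Grhl3 climbed across the tertiles in both libraries, at 88.0, 251 and 338 CPM in DNp63cKO and 105, 180 and 507 CPM in control. It was higher in DNp63cKO in the middle tertile (log2 ratio 0.47) and lower in the highest (-0.58). With the same bounds for both libraries the middle tertile gave 0.03, so the middle value depended on where the tertiles were set, while the highest gave -0.67. Pparg made an arch in DNp63cKO, at 521, 767 and 537 CPM, where control was nearly flat at 849, 810 and 767 CPM. Its step between the cluster groups of DNp63cKO (0.35) was not seen across these tertiles (0.04), and was -0.42 when ranked by the other superficial markers. Ovol1 was at 26.4, 71.4 and 59.4 CPM in DNp63cKO and 24.0, 25.5 and 36.8 CPM in control. Its ratio in the lowest tertile was 0.12, but 0.52 when ranked by the other superficial markers and -0.24 with common bounds. Rxra was lower in DNp63cKO in each tertile, at 124, 126 and 146 CPM against 208, 204 and 204 CPM in control. Within DNp63cKO its step was -0.24 between the cluster groups, 0.23 across these tertiles and 0.63 across those of the other superficial markers.

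**Figure D4:**
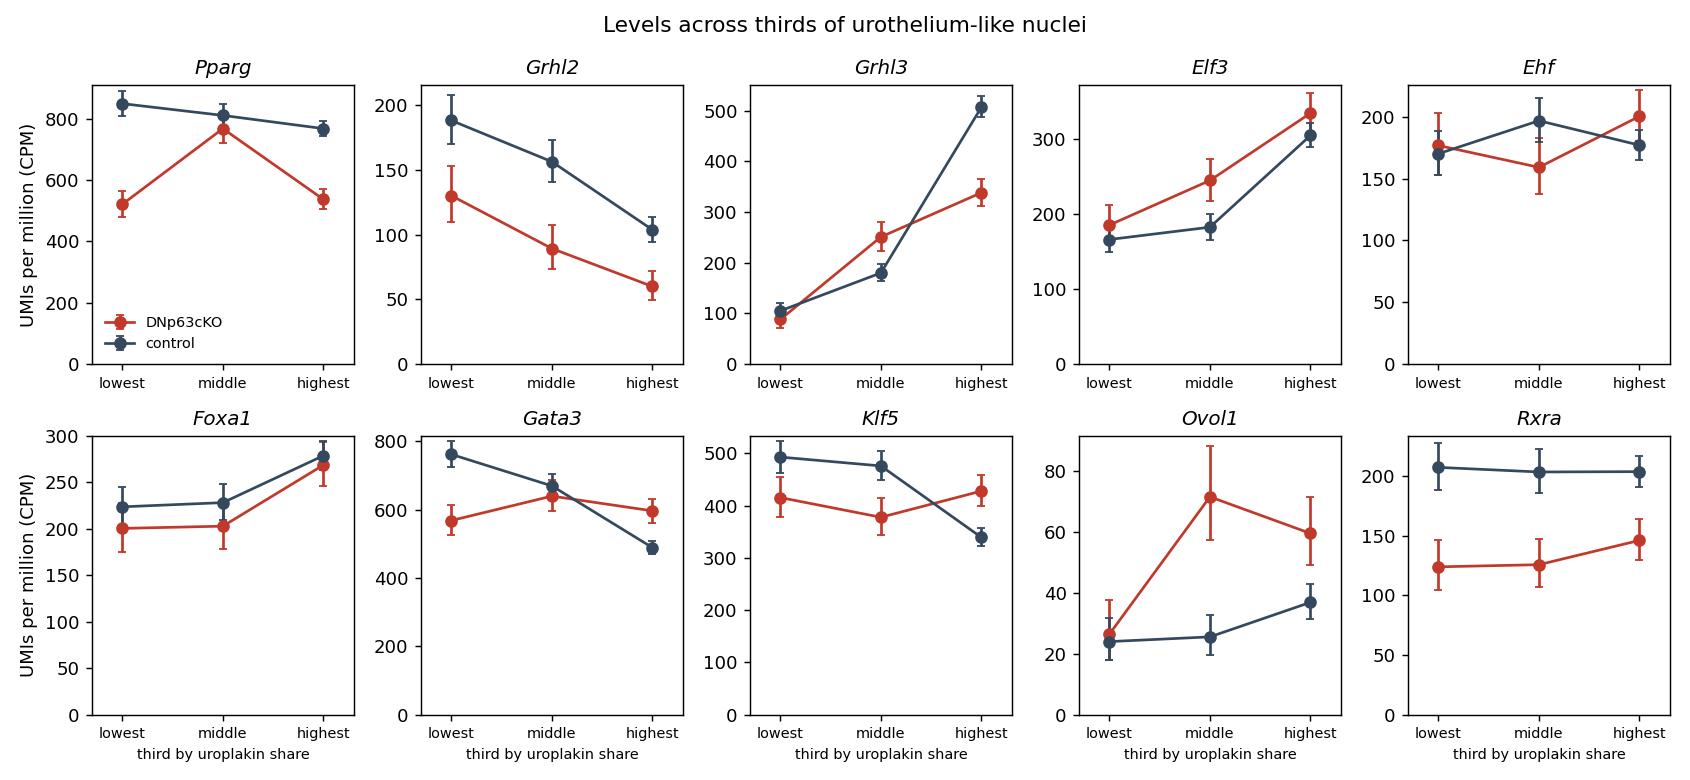
Level of each member (CPM, axis from 0, 95% Poisson bars) in the lowest, middle and highest tertile of urothelium-like nuclei by uroplakin share, ranked within each library. Gata3 and Klf5 fall toward the highest tertile in control (489 and 339 CPM there) but not in DNp63cKO (597 and 428 CPM), and Grhl3 reaches 338 CPM in DNp63cKO and 507 CPM in control.

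Krt5, a basal keratin, gave a further view of the basal side. Nuclei with a Krt5 UMI (393 in DNp63cKO, 774 in control) held more Rxra than nuclei without, by log2 differences of 0.53 in DNp63cKO and 0.52 in control. Klf5 was also higher in them (0.33 in each library), as was Grhl2 (0.43 and 0.28). Grhl3 was lower in Krt5 nuclei (-0.92 and -0.61), as were Ovol1 (-0.84 and -0.77) and Pparg (-0.59 and -0.41). Gata3 was level in Krt5 nuclei of DNp63cKO (-0.06, -0.20 to 0.08) and higher in those of control (0.21, 0.12 to 0.30).

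Pairs of factors were found in the same thinned nucleus about as often, on the median, as their single shares give. Over the 45 pairs the median ratio of the observed share to the product of the single shares was 1.01 in DNp63cKO and 0.99 in control. Pparg and Rxra met in 2.22% of DNp63cKO nuclei (1.63 to 2.95%), where the product was 2.44%, and in 3.67% of control nuclei (3.11 to 4.29%), where it was 4.82%. Grhl3 and Elf3 met in 2.94% of DNp63cKO nuclei (product 2.31%) and 2.24% of control nuclei (product 1.98%).

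Across the 12 values of 6 clusters in 2 libraries, the genes most like Grhl3 were Adh1, Osbpl2 and Liph, with Pearson r of log2(CPM + 5) of 0.99, 0.98 and 0.98. The genes most like Pparg were Copg2, Alpk1 and Plcb4 (r 0.90, 0.89 and 0.88), those most like Gata3 were Herc4, Chic2 and Foxp4 (0.88, 0.88 and 0.87), and those most like Klf5 were Itgb5, Esd and Rpl22 (0.92, 0.91 and 0.90). For Rxra they were Rab10, Ctnnb1 and Sorl1 (0.93, 0.93 and 0.92), and for Grhl2 9530036O11Rik, Phf12 and Fgf1 (0.96, 0.93 and 0.92). Elf3 was most like Bcap31, Cndp2 and Pcx, Ehf most like Zc3h3, Ngrn and Ndufv1, Foxa1 most like Gtf2b, Kcnk1 and Ppa1, and Ovol1 most like Lmf1, Slc35f6 and Abhd16a, with r between 0.83 and 0.93. These are the highest of 9742 genes, and the points share library and depth, so they describe likeness only.

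Of genes around PPARG, known targets lay to both sides, with a median below 0. In pooled urothelium-like nuclei 15 of 16 targets passed the filter, 4 were past the fold lower and 2 higher, and the median log2 ratio was -0.20. The shares of all genes past the fold were 4.06% lower and 5.69% higher. Plin2, which coats lipid droplets, was at 42.9 CPM in DNp63cKO against 99.7 CPM in control (-1.13), Pdk4, a brake on pyruvate use, at 34.7 CPM and 68.7 CPM (-0.89), and Fabp4, a fatty acid carrier, at 45.0 CPM and 75.8 CPM (-0.69). In fibroblast-like nuclei Plin2 was at 29.7 CPM in DNp63cKO against 48.1 CPM in control, Pdk4 at 22.3 CPM against 52.8 CPM and Fabp4 at 79.2 CPM against 41.1 CPM. Fabp4 was lower in high (-1.19) and higher in low (0.27) superficial clusters. Lpl, the lipoprotein lipase, was at 31.6 CPM in DNp63cKO against 10.1 CPM in control (1.28), and at 150 CPM in DNp63cKO against 174 CPM in control fibroblast-like nuclei. The fatty acid transporter gene Cd36, named after its values were seen, was higher at 13.3 CPM in DNp63cKO against 7.73 CPM in control (0.53). None of the 15 partners of PPARG was past the fold (median -0.07). Prdm16 was at 78.7 CPM in DNp63cKO against 105 CPM in control (-0.39), Cebpa at 15.2 CPM and 23.5 CPM (-0.50), Cebpb at 30.7 CPM and 40.1 CPM (-0.34) and the coactivator Ncoa3 at 71.4 CPM and 91.3 CPM (-0.33).

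Among the paralogs 17 of 23 passed the filter, with a median of 0.00. Past the fold 1 was lower and 0 higher, beside 4.06% and 5.69% of all genes. The one was Ppara, a PPARG relative that drives fatty acid oxidation, at 25.1 CPM in DNp63cKO against 68.7 CPM in control (-1.29, -1.76 to -1.16), and it was lower in both high (-0.65) and low (-1.62) superficial clusters. In fibroblast-like nuclei it was at 22.3 CPM in DNp63cKO against 48.1 CPM in control. Ovol2 was at 22.5 CPM in DNp63cKO against 29.5 CPM in control (-0.33), in the other direction from Ovol1. Elf4 was at 82.9 CPM in DNp63cKO against 70.6 CPM in control (0.22), and Gata6 at 31.2 CPM and 24.9 CPM (0.28). In fibroblast-like nuclei Gata6 was at 152 CPM in DNp63cKO against 131 CPM in control.

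Of 15 grainyhead targets 14 passed the filter (median -0.13). Past the fold 3 were lower and 1 higher, beside 4.06% and 5.69% of all genes. Beside the genes named here the third lower one was Arhgef19, at 10.1 CPM in DNp63cKO against 17.5 CPM in control (-0.57), named after its values were seen. Prom2, a protein of membrane protrusions, was at 126 CPM in DNp63cKO against 241 CPM in control (-0.91), the desmosome protein gene Dsp at 267 CPM and 399 CPM (-0.57), and the desmosomal cadherin gene Dsg2 at 259 CPM and 331 CPM (-0.35). Dsp was lower in high superficial clusters (-0.93) and close to level in low ones (-0.06). Sprr1a, a cornified envelope protein gene, was at 9437 CPM in DNp63cKO against 5732 CPM in control (0.72), and it is also in the superficial list, where it is the 1 higher gene.

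The uroplakin and superficial list had 13 of 13 measured and a median of 0.25. Past the fold 1 was lower and 1 higher, beside 4.06% and 5.69% of all genes. Upk2 was at 760 CPM in DNp63cKO against 546 CPM in control (0.47) and Psca at 1920 CPM and 1452 CPM (0.40), while Krt20, a keratin of mature superficial cells, was at 323 CPM in DNp63cKO against 471 CPM in control (-0.54). The median of the list was 0.17 in high and 0.23 in low superficial clusters. Upk2 was at 0.25 and 0.54 there, Psca at 0.10 and 0.88, and Krt20 at -0.74 and -0.34. Of urothelium-like nuclei, 1289 of 2234 in DNp63cKO and 1692 of 4903 in control were high superficial. The part of this mix in the pooled values was not tested. Of 22 other epithelial regulators 19 were measured (median -0.09), with 0 past the fold lower and 3 higher, beside the same 4.06% and 5.69%. Zfp750, a factor of epidermal differentiation, was at 29.7 CPM in DNp63cKO against 41.0 CPM in control (-0.40). Zeb1 was at 31.9 CPM in DNp63cKO against 19.9 CPM in control (0.57) and Zeb2 at 69.6 CPM and 39.3 CPM (0.75). The third higher gene, named after its values were seen, was Pax8 of the nephric lineage, at 16.4 CPM in DNp63cKO against 5.30 CPM in control (1.05). Summed nephron markers, 6 of 9 with UMIs in each library, were at 26.9 CPM in DNp63cKO against 9.72 CPM in control in the same nuclei, and summed collecting duct markers at 940 CPM (7 of 8) against 677 CPM (6 of 8). Their part in the Pax8 value was not tested. Zeb1 and Zeb2 are mesenchymal regulators, and Zeb2 was at 1198 CPM in DNp63cKO against 1239 CPM in control fibroblast-like nuclei, whose markers were also higher in the DNp63cKO urothelium-like nuclei. The part of those markers in the Zeb values was not tested.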

How the data were processed

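The deposited values are raw UMI counts, 1 table of genes by nuclei for each library. Singleron GEXSCOPE libraries were made from flash-frozen ureters pooled by genotype, per the labels' protocols. The submitters' processing notes name, with no roles, the build mm10, Seurat 4.0.5 under R 4.0.5, STARsolo and STAR 2.7.11a. The sources used here do not give strand use, intron counting or the barcode filter. Gene positions are those of GENCODE M21, which held 32445 of the 32589 gene IDs.

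Kept nuclei had at least 300 genes and no more than 5% of UMIs from mitochondrial genes. Scrublet's own threshold marked 0% as doublets and had not worked, so the top 5% by score were removed (319 nuclei in DNp63cKO, 516 in control). Leiden clustering (scanpy 1.11.5, resolution 1.0, 2000 variable genes without the members, 30 components, 15 neighbours, no integration) gave clusters that were named from 3 or more markers at 50 or more CPM. The reference for naming, nuclei outside the cluster's group at resolution 0.1, was set after the data were seen. Cluster 15 (42 DNp63cKO and 230 control nuclei) scored highest for urothelium, with 20 urothelium markers and 10 basal markers at 50 CPM or more. It stayed unnamed because its 10 leading genes held 1 mast cell marker (Tpsb2) and no urothelium marker. Trp63 was also among those 10. In the main setting its nuclei enter neither the urothelium-like values nor those outside the urothelium. UMIs were summed per class and library. Ratios are DNp63cKO over control of CPM + 5 for genes with 20 or more UMIs. Their conditional binomial intervals leave the 5 out. CPM have Poisson and shares Clopper-Pearson intervals. Both libraries have 1 replicate, and the ratio was tested on simulated data. The member genes and all lists were chosen with earlier results of these data known. Named genes are the members, up to 4 genes with the largest ratio per list at 50 or more UMIs and 20 or more CPM, and the 3 genes most like each member. Alternatives were other filters, resolutions, scalings, pseudocounts, weightings and free RNA subtraction. Some named genes of these lists are not reported here.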

Additional observations from a re-analysis of the deposited data

Results flagged for a closer look

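Gata3 and Klf5 differed in opposite directions in the 2 groups of urothelium-like clusters. The log2 ratio of DNp63cKO over control of Gata3 was 0.27 in high superficial clusters and -0.25 in low superficial clusters. That of Klf5 was 0.22 in high and -0.19 in low superficial clusters. With 1 library per group the difference between the groups of clusters was not tested. Both genes kept these opposite signs under all 14 alternatives that were run on both groups. Over the alternatives Gata3 ran between 0.13 and 0.53 in high and between -0.31 and -0.08 in low superficial clusters, and Klf5 between -0.23 and -0.02 in the low ones, the last with an estimated free RNA share subtracted. With clusters 5, 6 and 7 left out in turn, which was added after seeing the data, both stayed lower in the low superficial group, Gata3 at -0.31, -0.19 and -0.16 and Klf5 at -0.23, -0.17 and -0.10. With 1 high superficial cluster left out Gata3 stayed higher in DNp63cKO, at 0.26 without cluster 4, 0.13 without cluster 8 and 0.33 without cluster 9. Klf5 did not, at -0.10 without cluster 4, -0.14 without cluster 8 and 0.46 without cluster 9. High superficial nuclei of the 2 libraries lie mostly in different clusters.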

How the results depend on the processing

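No paired analysis was possible because each group has 1 library. The median log2 ratio of the 10 members was -0.06 and moved to -0.25 without cluster 4, which is 95.4% DNp63cKO after scaling. It moved to 0.13 when an estimated share of free RNA (38.9% in DNp63cKO, 25.9% in control, chosen after seeing the data) was subtracted. The count of members past the fold lower was 2, and became 0 with that subtraction, 4 at a fold of log2 0.3, 0 at a fold of log2 1 and 1 without cluster 4, where it is Grhl3 (-0.97) and no longer Grhl2 (-0.31) or Rxra (-0.495). The count higher was 1, and became 0 at log2 1 and 0 without cluster 4. Subtracting the whole level outside the urothelium, the planned form, gave 2 lower (Grhl2 at -0.51 and Grhl3 at -0.58, with Rxra at -0.49) and 1 higher. For the pooled class the shares of all genes (4.06% lower, 5.69% higher) were worked out only at log2 0.5 in the main setting. The counts under the alternatives have no such share beside them and are not read as a result about the members. In pooled nuclei Grhl3 depended on its clusters, at -0.97 without cluster 4 and 0.37 without cluster 8, and Elf3 was at -0.21 without cluster 4. Pparg (-0.49 to -0.24), Grhl2 (-0.82 to -0.31), Rxra (-0.69 to -0.42) and Ovol1 (0.25 to 0.95) kept their direction under all alternatives run. Leaving out barcodes found in both libraries moved no value past its interval. Of 858 values under alternatives, 684 stayed within the counting interval or, for counts, within 1.5 times the count, 174 moved and 0 reversed a difference past the fold. Depth limits Ovol1 most, with 231 and 280 UMIs.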
